A study of Mus musculus with 3 samples.

Results

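The 9 genes described here handle lipid in skin. They comprise the lipoprotein genes Apoe and Apoc1, the uptake genes Lpl and Fabp5, the desaturase genes Scd1 and Scd2, the fatty acid synthase gene Fasn, the triglyceride synthesis gene Dgat2 and the regulator gene Pparg. They were taken by symbol from a table of 44548 genes. The group was chosen by the high measured TPM of Apoe, which was among the most abundant transcripts, so levels are given as a description with no test. Polyadenylated RNA was sequenced in 3 libraries of 1 group, and no second group was analysed here. Each library came from back skin of wild-type (WT) mice at P56 (56 days, the second telogen, a resting phase of the hair cycle), from cells sorted as Alpha6+/Sca1-. Alpha6 is an integrin of basal epithelial cells and Sca1 a surface protein of the interfollicular epidermis and upper follicle. Per the labels, cells were sorted from trypsin-digested epidermis, the only antibody named is against integrin alpha6, and a pair of biological collections is mentioned while there are 3 libraries. Which libraries are independent is therefore not known, and each SD covers the spread between these libraries, which may be technical.

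The sebaceous gland sits on the hair follicle and fills its cells with triglycerides, wax esters and sterols that are released as sebum. Fatty acids are built by fatty acid synthase, desaturated by stearoyl-CoA desaturases, and joined to diacylglycerol by DGAT2. Lipoprotein lipase frees fatty acids from lipoproteins outside the cell, and fatty acid binding proteins carry them inside it. PPARG is a nuclear receptor needed for sebocyte and adipocyte differentiation, and apolipoprotein E carries cholesterol and other lipids between cells.

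Replicate 1 held 29283936 counts, replicate 2 held 35264901 and replicate 3 held 39198620. Levels of different genes were compared in TPM, which corrects counts for gene length and library total. A gene was called detected when its mean TPM reached 1, which held for 13663 genes. A detected gene deviated in a library when it differed there from both other libraries, in the same direction, by more than 1 in log2(TPM + 1). The share was 12.9% for replicate 1, 1.68% for replicate 2 and 2.88% for replicate 3, so replicate 1 differed most. The marker genes of the hair follicle bulge were detected in 10 of 10 cases, with a summed level of 24308 to 29754 TPM, led by Krt15 (23208 ± 3176), Postn (1487 ± 504) and Dkk3 (679 ± 157 TPM). The 10 markers of the suprabasal epidermis, the differentiating layers above the basal cells, were also detected, with 7992, 9647 and 12445 TPM in replicates 1, 2 and 3, led by Lgals7 (4499 ± 251), Krt10 (1893 ± 904) and Krtdap (1255 ± 352 TPM). The bulge sum was mostly Krt15. By median the lists lay closer, with 477, 454 and 421 TPM for bulge and 316, 426 and 579 TPM for suprabasal markers. The libraries therefore held transcripts of differentiating epidermis, and in bulk RNA fewer cells of a type and less RNA per cell cannot be told apart.

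Promoter sequences are shown for the most abundant member, Apoe, for Fasn and for Pparg, the member with an H3K27me3 value, which were the 3 of the 9 genes matched by symbol in the RefSeq promoter table (GRCm38.p6). Apoc1, Lpl, Fabp5, Scd1, Scd2 and Dgat2 were not matched. Each line gives the 250 bases before a start site, 5′ to 3′ on the gene's strand, with searched motifs in capitals.
Apoe, minus strand, chr7:19699189-19699438: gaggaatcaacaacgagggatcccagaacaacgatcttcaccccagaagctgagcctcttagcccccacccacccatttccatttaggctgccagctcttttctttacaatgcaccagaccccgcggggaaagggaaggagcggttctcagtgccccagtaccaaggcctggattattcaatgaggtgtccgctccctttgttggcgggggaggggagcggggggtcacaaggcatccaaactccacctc
Fasn, minus strand, chr11:120824548-120824797: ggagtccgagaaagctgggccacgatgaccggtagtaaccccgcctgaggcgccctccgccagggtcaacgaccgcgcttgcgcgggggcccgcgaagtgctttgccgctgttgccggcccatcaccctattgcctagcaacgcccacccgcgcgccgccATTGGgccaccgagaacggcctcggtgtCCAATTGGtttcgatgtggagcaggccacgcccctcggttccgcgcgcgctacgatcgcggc
Pparg, plus strand, chr6:115421816-115422065: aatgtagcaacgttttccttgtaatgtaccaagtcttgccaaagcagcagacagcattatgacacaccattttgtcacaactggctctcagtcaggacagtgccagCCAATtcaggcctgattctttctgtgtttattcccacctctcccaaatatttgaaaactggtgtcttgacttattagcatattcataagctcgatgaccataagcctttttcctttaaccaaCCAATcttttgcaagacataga

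The motifs were searched on both strands. They were the CCAAT box (CCAAT), the TATA box (TATAAA), the GC box (GGGCGG), the sterol response element (TCACCCCAC), the E-box (CACGTG) and the direct repeat of nuclear receptor half-sites bound by PPAR and RXR pairs. The Fasn window held 3 CCAAT boxes, at -90, -62 and -59 from the start to their first base, of which the latter pair overlap on opposite strands. A CCAAT box was held by 33.8% of 32851 promoter windows of this length, and the Pparg window above held 2. The shares for the TATA box, GC box, sterol response element, E-box and direct repeat were 12.4%, 32.7%, 0.496%, 6.02% and 0.033%. The Apoe window shown held none of the 6 motifs. The table holds 3 windows each for Apoe and Pparg. The Apoe window before the start at 19698621 held 2 overlapping TATA boxes, at -100 and -96, and that before 19698398 held none of the motifs. The Pparg window before 115362349 held 1 CCAAT box, 1 TATA box and 2 GC boxes. Of the bases of these last 2 windows, 173 and 57 lie in exons of GENCODE M21. The Apoe and Pparg windows held 8 and 2 CpG dinucleotides, with a median of 6 over all windows, and the Fasn window held 33, more than 96.0% of windows. The remaining Pparg window, before the start at 115361144, held 38 CpG and 1 GC box and is not printed because 193 of its bases lie in exons of GENCODE M21. These matches describe letters in the sequence only.

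Apoe was by far the most abundant of the 9 genes. Apoe (ENSMUSG00000002985, GRCm38 chr7:19696109-19699188, minus strand) had 9763, 13578 and 12581 TPM in replicates 1, 2 and 3, a mean of 11974 ± 1979 TPM (SD, n = 3). Replicate 1 was the lowest, and all values lay within 1.39-fold of each other. Its share of all counts was 0.768% (0.765 to 0.771, 95% Wilson interval) in replicate 1, 1.13% in replicate 2 (1.12 to 1.13) and 1.06% in replicate 3 (1.055 to 1.062), intervals that cover counting error only. By mean TPM it ranked 7 of 44548 genes, and 9, 6 and 8 in the single libraries. Among protein-coding genes of the nuclear genome its rank was 3. The next gene in rank was Eef1a1, a translation elongation factor gene, with 11587 ± 1161 TPM (SD, n = 3). Eef1a1 was above Apoe in replicates 1 and 3 and below it in replicate 2, so the order of this pair did not hold beyond the spread.

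Apoc1 encodes a small apolipoprotein that is known to inhibit lipoprotein lipase, and it is the next gene on the chromosome (ENSMUSG00000040564, chr7:19689481-19692660, minus strand). It had 459.8, 475 and 392 TPM, a mean of 442 ± 44.2 TPM (SD, n = 3), from 3687, 4837 and 4497 counts. Replicate 3 was the lowest, in contrast to Apoe. Apoe lay above Apoc1 by 4.41, 4.83 and 5.00 on the log2(TPM + 1) scale, a mean difference of 4.75 ± 0.31 (SD, n = 3). The genes on the far side of Apoc1 were near 0, although they belong to the same apolipoprotein cluster. Apoc4 had 7, 14 and 9 counts, or 0.296 ± 0.0933 TPM, and Apoc2, the activator of lipoprotein lipase, had 0 counts in all 3 libraries, a limit of 0.342 TPM at 3 counts.

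Lpl encodes lipoprotein lipase (ENSMUSG00000015568, chr8:68880491-68907448, plus strand). It had 0.903, 0.425 and 0.507 TPM on the basis of 102, 61 and 82 counts, with a mean at 0.612 ± 0.256 TPM (SD, n = 3), and lay below the detection limit of 1 TPM used here. Replicate 1 was the highest. The 95% Poisson intervals, which cover counting error only and not the spread between libraries, were 0.736 to 1.10, 0.325 to 0.546 and 0.404 to 0.630 TPM. Gpihbp1, which holds the lipase on capillary endothelium, had 0 counts in all 3 libraries, a limit of 0.109 TPM at 3 counts. Lmf2, a paralog of the lipase maturation factor Lmf1, had 57.5 ± 3.39 TPM (SD, n = 3), and Lmf1 had 3.70 ± 0.940 TPM.

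Fabp5, the epidermal fatty acid binding protein gene (ENSMUSG00000027533, chr3:10012548-10016607, plus strand), had 20.2, 15.8 and 25.4 TPM on the basis of 776, 770 and 1400 counts, with a mean at 20.5 ± 4.85 TPM (SD, n = 3). Replicate 3 was the highest and replicate 2 the lowest. Fabp5 lay above Lpl by 3.72 ± 0.36 on the log2(TPM + 1) scale (SD, n = 3). Its level depends strongly on the gene length. The deposited length of 3567 bases equals the joint exons of its annotated transcripts, 3.61 times the 987 bases of the principal coding transcript. With the length of the principal coding transcript for all protein-coding genes, an alternative chosen after seeing the data, Fabp5 had 54.9 ± 13.1 TPM (SD, n = 3), 2.68 times its deposited level, and moved from the seventh to the fourth place among the 9 genes.

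Fabp5 has processed pseudogene copies elsewhere in the genome, so reads could be counted for a copy or dropped. Of the 50-base words of its principal transcript, 21.1% also occur in a transcript of another gene, and 19.6% occur in the pseudogene Gm6166 on chromosome 9. Fabp5 and Gm6166 differed at 5 of 407 aligned coding bases, and the longest identical stretch is shown because reads inside it cannot be assigned to one of the 2 genes. The longest identical coding stretch of Scd1 and Scd2 is shown for the same reason. Both come from the transcripts of GENCODE M21.
Fabp5 and Gm6166, coding bases 10 to 188 of Fabp5: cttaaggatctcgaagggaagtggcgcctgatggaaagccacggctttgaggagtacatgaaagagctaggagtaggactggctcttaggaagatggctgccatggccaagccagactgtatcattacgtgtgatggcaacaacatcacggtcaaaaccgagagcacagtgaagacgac
Scd1 and Scd2, coding bases 523 to 669 of Scd1: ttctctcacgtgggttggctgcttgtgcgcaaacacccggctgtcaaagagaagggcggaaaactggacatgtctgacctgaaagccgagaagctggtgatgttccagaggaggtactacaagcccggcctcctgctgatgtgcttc

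Few reads had been counted for the copies. Gm6166 had 0, 7 and 6 counts in replicates 1, 2 and 3, and the other 4 genes that share words with Fabp5 had 0 in all libraries. The copies therefore took 0% of the joint counts in replicate 1, 0.901% in replicate 2 and 0.427% in replicate 3. How the authors treated reads with several alignments was not given in the sources used here. The coding sequences of Scd1 and Scd2 were 90.4% identical, and 4.66% of the words of the Scd1 transcript and 4.01% of those of Scd2 occur in another gene, so most of their transcripts can be told apart. Scd3 was closer to Scd1 than Scd2 was, with 91.5% identity and a longest identical coding stretch of 185 bases. It had 13, 18 and 21 counts. None of the 50-base words of Apoe, Apoc1, Dgat2, Fasn or Pparg occurred in another gene, and 3.98% of those of Lpl did.

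Scd1 and Scd2 encode stearoyl-CoA desaturases, which make monounsaturated fatty acids. Scd1 (ENSMUSG00000037071, chr19:44394455-44407879, minus strand) had 43.9, 43.1 and 66.7 TPM, a mean of 51.2 ± 13.4 TPM (SD, n = 3). Scd2 (ENSMUSG00000025203, chr19:44293674-44306864, plus strand) had 18.0, 22.4 and 22.4 TPM, a mean of 20.9 ± 2.56 TPM (SD, n = 3). Scd1 was the higher of both in every library, by 1.24, 0.91 and 1.53 on the log2(TPM + 1) scale, a mean of 1.23 ± 0.31 (SD, n = 3). The other genes of the cluster were near 0. Scd3, a desaturase gene known from sebaceous glands, had 0.373 ± 0.0230 TPM from 13, 18 and 21 counts, and Scd4 had 0.115 ± 0.0850 TPM from 7, 8 and 1 counts. A microRNA gene, Mir5114, lies inside an exon of Scd2 over 61 bases and had 0 counts in all libraries.

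Fasn encodes the enzyme that builds palmitate (ENSMUSG00000025153, chr11:120805846-120824547, minus strand). It had 26.0, 48.4 and 42.6 TPM, a mean of 39.0 ± 11.6 TPM (SD, n = 3), from 3066, 7251 and 7197 counts. Replicate 1 was lowest, below the mean of the others by 0.78 on the log2(TPM + 1) scale. Dgat2, which encodes the enzyme of the last step of triglyceride synthesis (ENSMUSG00000030747, chr7:99153658-99182719, minus strand), had 41.9, 49.1 and 87.1 TPM, a mean of 59.4 ± 24.3 TPM (SD, n = 3). Replicate 3 was highest, at 2.08 times the lowest library. The order of Fasn and Dgat2 rests on length. Fasn lay below Dgat2 by 0.67, 0.02 and 1.01 on the log2(TPM + 1) scale, with a mean difference of -0.57 ± 0.50 (SD, n = 3), while its CPM, counts scaled to library size alone, was the higher in every library.

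Pparg (ENSMUSG00000000440, chr6:115360951-115490399, plus strand) was scarce. It had 41, 17 and 15 counts, which gave 1.29, 0.420 and 0.329 TPM, a mean of 0.679 ± 0.529 TPM (SD, n = 3). Replicate 1 was 3.91 times the lowest library. The 95% Poisson intervals, again for counting error only, were 0.924 to 1.75, 0.245 to 0.673 and 0.184 to 0.543 TPM. The mean without replicate 1 was 0.375 TPM, and 59.6% of detected genes were highest in that library. The antisense gene Gm44079 overlaps the Pparg locus but shares no exon bases with it. Among genes related to Pparg in function, Ppard stood at 23.6 ± 5.26 TPM and its partner Rxra at 175 ± 38.5 TPM (SD, n = 3), while Ppara had 1.54 ± 0.226 TPM.

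**Figure D1:**
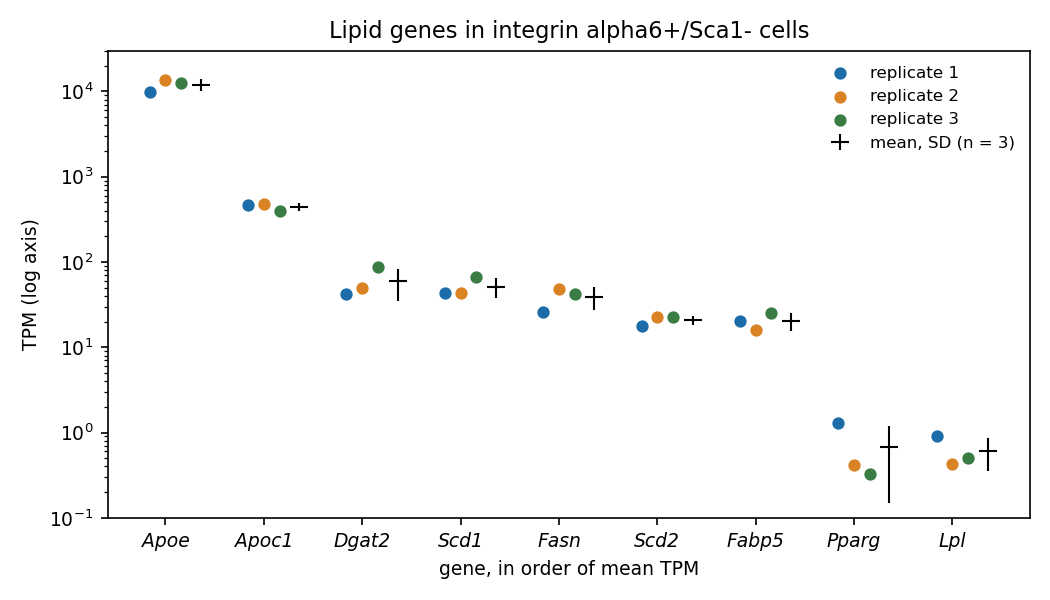
TPM of the 9 lipid genes on a log axis, in order of mean TPM; points are the 3 replicates and the black dash is the mean with its SD (n = 3). Apoe lies near 11974 TPM, Apoc1 near 442 TPM, 5 genes lie between 20.5 and 59.4 TPM, and Pparg and Lpl lie below 1 TPM on average.

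In order of mean TPM the genes ran Apoe, Apoc1, Dgat2, Scd1, Fasn, Scd2, Fabp5, Pparg and Lpl, as the plot of TPM by replicate shows. The steps from Apoe to Apoc1, from Apoc1 to Dgat2 (2.94 ± 0.69 on the log2 scale), from Fasn to Scd2 (0.83 ± 0.29) and from Fabp5 to Pparg (3.70 ± 0.56) had the same sign in all 3 libraries and exceeded their SD. The neighbours Dgat2 and Scd1 (0.17 ± 0.22), Scd1 and Fasn (0.40 ± 0.49), Scd2 and Fabp5 (0.05 ± 0.38) and Pparg and Lpl (0.03 ± 0.23) did not differ beyond their spread (mean differences of log2(TPM + 1) ± SD, n = 3). Of the 9 genes, 7 were detected, beside 30.7% of all 44548 genes.

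**Figure D2:**
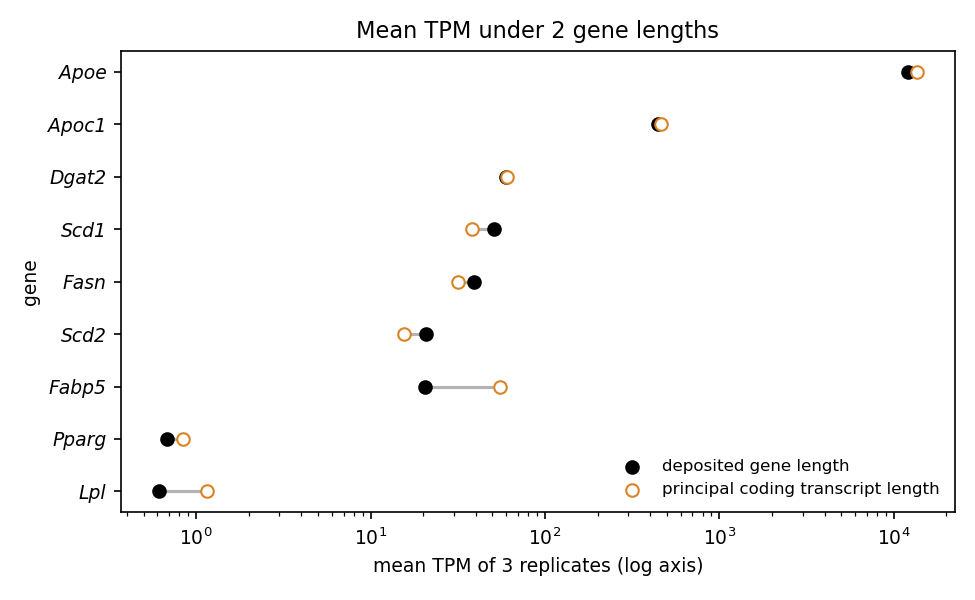
Mean TPM of 3 replicates on a log axis, with the deposited gene length (filled) and with the principal coding transcript length for protein-coding genes (open). Fabp5 goes from 20.5 to 54.9 TPM and Lpl from 0.612 to 1.15 TPM, and Scd1, Scd2 and Fasn are lower with the principal length.

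The deposited length equalled the joint exon length of all annotated transcripts for 7 of the 9 genes. It was 2.55 times the principal coding transcript for Lpl, 1.67 times for Pparg, 1.52 times for Apoe, 1.40 times for Apoc1 and 1.36 times for Dgat2, and within 1.09 times for Fasn, Scd1 and Scd2. With the principal transcript length, the plot of both lengths has Fabp5 above Scd1 (54.9 against 38.1 TPM), Fasn at 31.7 TPM and Scd2 at 15.6 TPM. Lpl then stood above Pparg, with 1.15 ± 0.462 against 0.837 ± 0.638 TPM (SD, n = 3). Apoe, Apoc1 and Dgat2 kept places 1, 2 and 3, with 13532, 459 and 60.3 TPM.

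None of the 7 detected genes deviated in any replicate by more than 1 on the log2(TPM + 1) scale, beside 16.4% of the 13663 genes. With a limit of 1.5-fold, Scd1 and Dgat2 were high in replicate 3 and Fasn was low in replicate 1, beside 34.0% of genes. Dgat2 had the widest range of the 7, 1.04 on the log2 scale, and its SD of 0.55 lay above that of 86.2% of the 6940 genes with a mean TPM from 10 to 100. Apoc1 and Scd2 had the smallest SD of the 9, 0.15 and 0.17. Of the 7, 4 were highest in replicate 2 (Apoe, Apoc1, Scd2 and Fasn), 3 in replicate 3 (Fabp5, Scd1 and Dgat2) and 0 in replicate 1, beside 20.0%, 20.4% and 59.6% of all detected genes.

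**Figure D3:**
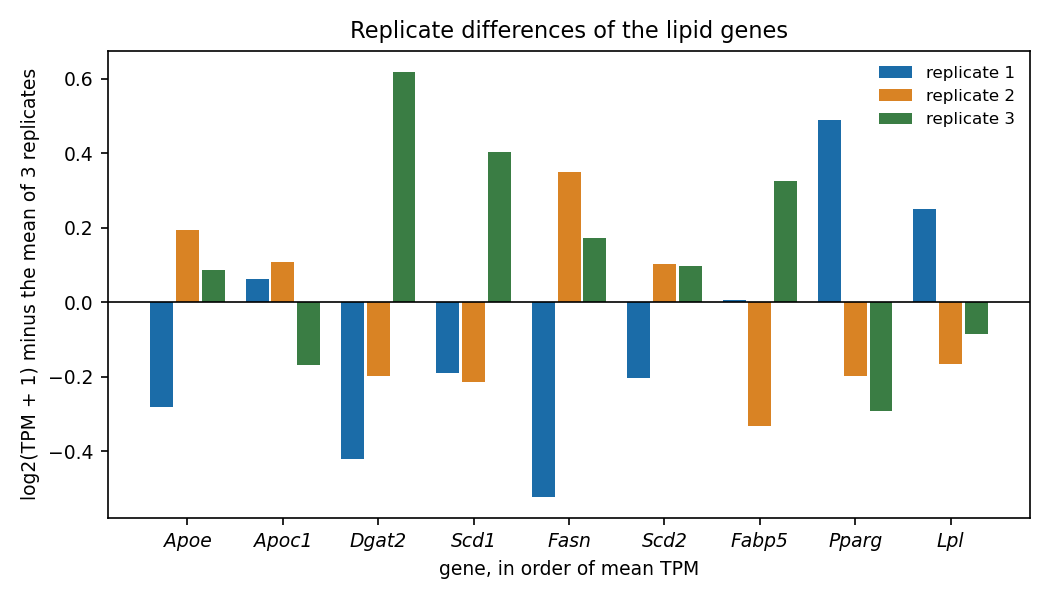
Log2(TPM + 1) of each replicate minus the mean of the 3 replicates, for the 9 lipid genes in order of mean TPM. Dgat2, Scd1 and Fabp5 are highest in replicate 3, Fasn is lowest in replicate 1, and Pparg and Lpl are highest in replicate 1.

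Markers of other cells are given beside these differences. Of the 10 suprabasal markers, 8 were highest in replicate 3, the library in which Dgat2, Scd1 and Fabp5 were highest. The summed level of the 8 fibroblast markers was lowest in replicate 1, as Apoe, Scd2, Fasn and Dgat2 were, at 23.5, 54.5 and 51.5 TPM. That sum was mostly Col1a1, Col1a2 and Thy1. The median of the fibroblast list was instead highest in replicate 1, at 0.283, 0.252 and 0.234 TPM. The part of either list in the replicate differences was not tested. The 14 sebaceous gland markers summed to 129, 127 and 132 TPM in replicates 1, 2 and 3, a sum made up mostly of Mgst1 and Plin2. The median of the list was 1.85, 0.70 and 1.19 TPM. Among them 9 were detected, led by Mgst1 with 65.2 ± 6.08 TPM, Plin2 with 45.1 ± 4.61 TPM and Gata6 with 9.61 ± 2.83 TPM (SD, n = 3). The wax ester synthase gene Awat1 had 1, 0 and 0 counts and Dgat2l6 had 9, 0 and 0. Awat2 had 43, 23 and 99 counts, or 1.88, 0.790 and 3.02 TPM, highest in replicate 3 as Dgat2 was. Of the 9 detected sebaceous markers, 6 were highest in replicate 1, where Dgat2 was lowest, 1 in replicate 2 and 2 in replicate 3. Over all detected genes, 59.6% were highest in replicate 1. Fa2h, a fatty acid hydroxylase gene, had 1.82, 0.146 and 1.51 TPM. The part of sebaceous cells in the replicate differences was not tested.

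Apoe, Apoc1, Lpl and Fabp5 are also known from macrophages, and Lpl, Pparg and Dgat2 from adipocytes. Of the 12 macrophage markers, 2 were detected, Cd68 with 21.3 ± 4.58 TPM and Cd14 with 4.36 ± 0.463 TPM (SD, n = 3). C1qb, C1qc, Mrc1, Fcgr1, Lyz2 and Cd163 had 0 counts in all libraries, and the list summed to 22.3 to 30.4 TPM. Of the 10 adipocyte markers only Lipe was detected (3.55 ± 0.980 TPM). Adipoq had 4, 3 and 8 counts, Fabp4 and Cidec had 0, and the list summed to 3.07 to 5.43 TPM. The 7 endothelial markers summed to 0.786 to 0.928 TPM, with Cdh5, Cldn5, Emcn and Gpihbp1 at 0. The fibroblast list was led by Col1a1 (17.4 ± 8.73), Col1a2 (16.6 ± 6.60) and Thy1 (8.59 ± 2.85 TPM), with Lum and Dpt at 0. The 8 Schwann cell markers summed to 48.4 to 61.2 TPM, mostly Pmp22 (43.5 ± 5.56), followed by Mbp (5.57 ± 0.154 TPM). The plot of summed marker levels shows all 8 lists by replicate. The part of these cell types in the levels of the 9 genes was not tested.

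**Figure D4:**
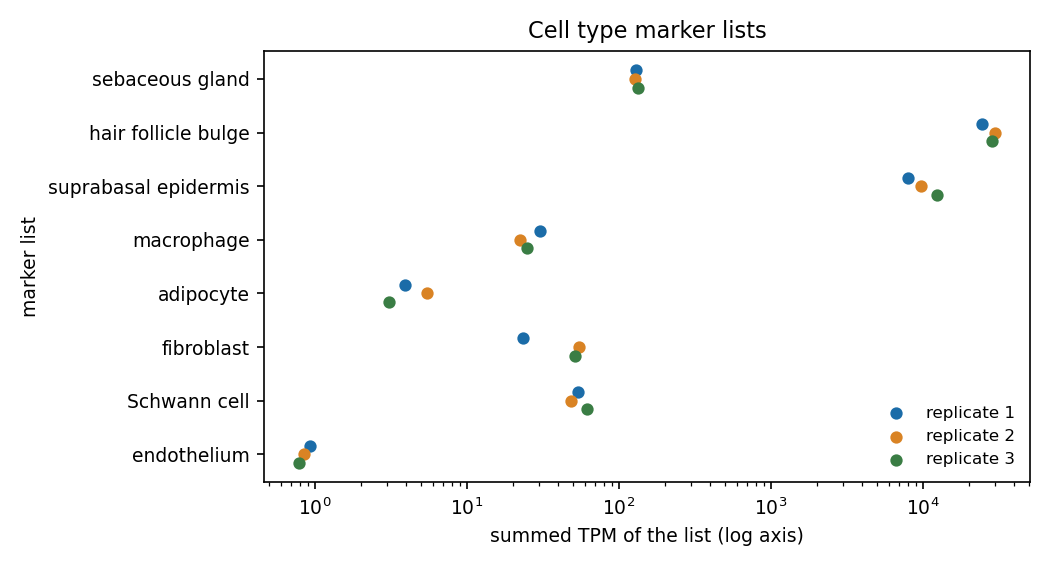
Summed TPM of 8 cell type marker lists in each of the 3 replicates, on a log axis. Bulge markers, mostly Krt15, lie at 24308 TPM or more, and suprabasal markers between 7992 and 12445 TPM. Sebaceous gland markers lie between 127 and 132 TPM, and adipocyte and endothelial markers at 5.43 TPM or less.

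The authors deposited a fold change and an adjusted p-value per gene. From the names of columns not used here it was taken to compare these libraries with libraries named bulge, which were not analysed here. The direction was read from 2552 genes without any count in these libraries, whose deposited fold changes were all below 0. Positive values thus stand for a higher level in the Alpha6+/Sca1- libraries. The libraries named bulge matched no sample, so how they were sorted and prepared is not known here. A difference between cells therefore cannot be told apart from one between the 2 sets of libraries. With an adjusted p-value under 0.05 in the authors' deposited table, 5 of the 9 genes were higher and 0 lower, beside 23.6% of 20264 genes higher and 31.9% lower. The median log2 fold change in the authors' deposited table was 1.99 over the 9 genes and -0.36 over all genes with a p-value. The choice of genes may have drawn on this comparison, so the counts are a description. The suprabasal markers moved the same way and further, with 9 of 10 higher and 0 lower in the authors' deposited table and a median of 3.21. The bulge markers had 3 of 10 higher and 3 lower there with a median of -0.05, and the sebaceous markers 3 of 11 higher and 0 lower with a median of 0.70. None of the macrophage, adipocyte or endothelial markers with a p-value was higher in the authors' deposited table (0 of 3, 0 of 4 and 0 of 3), while 1 of 6 fibroblast and 1 of 7 Schwann cell markers were. In each of the macrophage, fibroblast and Schwann cell lists 1 marker was lower there, Cd68 (-0.89), Col3a1 (-2.67) and Pmp22 (-1.61). With so few genes tested, these counts are a description only. The part of the suprabasal transcripts in the differences of the 9 genes was not tested.

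Both lipoprotein genes were higher in that comparison. Apoe had, in the authors' deposited table, a log2 fold change of 3.26, a 9.56-fold higher level (adjusted p-value 4.70e-24), and Apoc1 had 2.94, or 7.70-fold (adjusted p-value 2.98e-34). The suprabasal genes Lgals7, Krt10 and Krtdap had 6.42, 3.29 and 3.24 in the authors' deposited table, above Apoe for Lgals7 and Krt10 and below it for Krtdap. Of the uptake genes, Fabp5 had a log2 fold change of 2.66 in the authors' deposited table (adjusted p-value 1.38e-13), while Lpl had 1.27 and an adjusted p-value of 0.0910. Dgat2 had 1.99 (adjusted p-value 7.14e-07) in the authors' deposited table. The fatty acid synthesis and desaturase genes did not pass the limit. Fasn had 0.42 in the authors' deposited table (adjusted p-value 0.232), Scd1 -0.45 (0.162) and Scd2 -0.0046 (0.990).

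Pparg had a log2 fold change of 3.12 in the authors' deposited table, an 8.67-fold higher level, with an adjusted p-value of 0.0310. With a limit of 0.01 it did not pass and 4 of the 9 genes were higher, beside 19.9% of genes. Its level in the libraries analysed here rested on 41, 17 and 15 counts. In the column headed H3K27me3, a repressive histone mark, Pparg alone among the 9 was not at 0, and 8.06% of all genes were not. Its value in the authors' deposited table was 10603, above 62.3% of the 3591 values over 0, in a unit that the sources used here do not give. The score in the authors' deposited table, which multiplies that value plus 1 by the fold change on the log2 scale and by the negative log10 of the p-value, placed Pparg at rank 65 of 20264, Apoc1 at 671 and Apoe at 760.

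**Figure D5:**
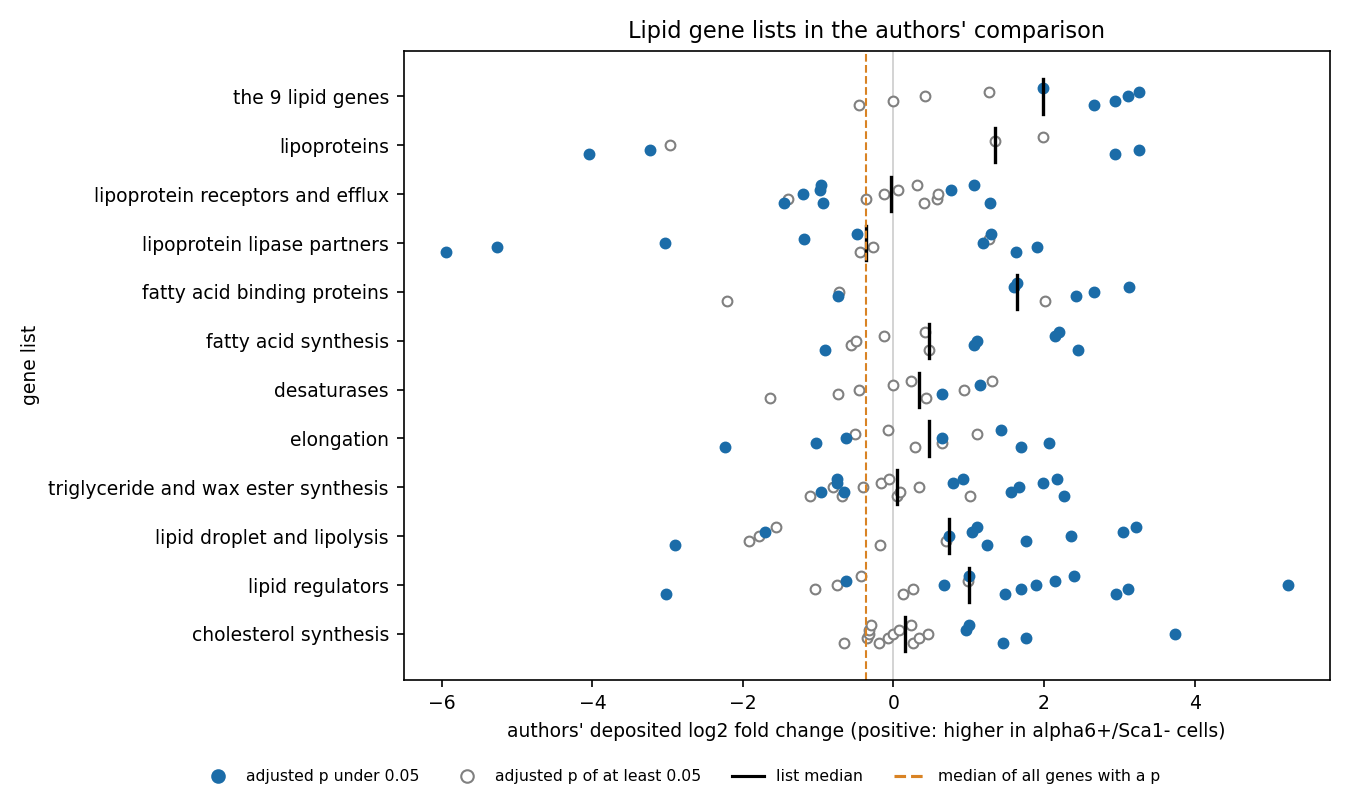
The authors' deposited log2 fold change of each gene with an adjusted p-value, for the 9 lipid genes and 11 pathway lists; filled points have an adjusted p-value under 0.05, black bars are list medians and the dashed line is the median of all genes. The 9 genes have a median of 1.99 and the dashed line lies at -0.36.

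The 9 genes were then set beside 11 lists of lipid genes. The lists held 168 genes found in the table, the 9 among them, of which 125 were detected. Of the 149 with an adjusted p-value in the authors' deposited table, 55 were higher and 25 lower, with a median log2 fold change of 0.34. Without the 9 genes it was 50 higher and 25 lower of 140, with a median of 0.28. Over all genes with a p-value 23.6% were higher and 31.9% lower, and each count of a list below is to be read against these shares. Each list below is described by its counts only, with examples taken by level or by the size of the fold change.

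Among 14 lipoprotein genes, 2 were detected, Apoe and Apoc1. The next, Apod, had 0.327 ± 0.328 TPM (SD, n = 3), and Apoc2, Apoc3 and Apoa4 had 0 counts in all libraries. Apom (-4.04, adjusted p-value 7.27e-05) and Apob (-3.23, 0.0136) were lower in the authors' deposited table. Among 16 receptor and efflux genes, 14 were detected. The highest were the lysosomal membrane protein gene Scarb2 with 79.7 ± 6.77 TPM and Lrp10 with 69.7 ± 16.5 TPM (SD, n = 3). Higher in the authors' deposited table were 3 of the 16 genes, and 5 were lower, with log2 fold changes of 1.28 for Lrp10 and 1.08 for Abca7 against -1.45 for Vldlr and -1.20 for Scarb2.

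Of the 13 lipase and partner genes, 8 were detected, led by Lmf2, the phospholipid transfer protein gene Pltp (43.2 ± 13.6 TPM) and Sel1l (28.2 ± 1.92 TPM). Of 12 with a p-value in the authors' deposited table, 4 were higher and 5 lower. Angptl4, a lipase inhibitor gene, had a log2 fold change of 1.91 in the authors' deposited table and Lipg 1.63, while Angptl8 had -5.27. Among 15 fatty acid, retinoid and acyl-CoA binding genes, 7 were detected. The acyl-CoA binding protein gene Dbi had 250 ± 7.26 TPM, and the retinoic acid binding protein genes Crabp1 and Crabp2 had 44.9 ± 15.5 and 43.5 ± 3.49 TPM (SD, n = 3). Fabp1, Fabp2 and Fabp4 had 0 counts, and Fabp5 was the highest of the listed Fabp genes. A total of 5 of 9 were higher in the authors' deposited table, among them Crabp2 with 3.13, and 1 was lower, Acbd3 with -0.74.

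Of 12 fatty acid synthesis genes, 10 were detected. The mitochondrial citrate carrier gene Slc25a1 had 82.6 ± 16.1 TPM, and the ATP citrate lyase gene Acly had 77.2 ± 7.98 TPM (SD, n = 3), both above Fasn. A total of 5 of 11 were higher in the authors' deposited table, among them Mcat with 2.45 and Slc25a1 with 2.20, and 1 was lower, the acetyl-CoA carboxylase gene Acaca with -0.91. Among the 10 desaturase genes, the sphingolipid desaturase gene Degs1 was highest with 195 ± 11.3 TPM, followed by Scd1 and Fads1 (21.7 ± 4.61 TPM). A total of 2 of the 10 were higher in the authors' deposited table, Fads1 with 1.15 and Degs1 with 0.65, and 0 were lower. Of 13 elongation genes, 11 were detected, led by Tecr with 410 ± 13.0 TPM, Elovl1 with 122 ± 23.6 TPM and Hsd17b12 with 98.8 ± 8.99 TPM. Higher in the authors' deposited table were 4 of 12 genes, and 3 were lower, with 2.07 for Elovl1, 1.69 for Hsd17b12, -2.24 for Hacd4 and -1.03 for Elovl6.

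Dgat2 was among the higher genes of triglyceride and wax ester synthesis. Of 23 such genes, 19 were detected, and Acsl5, which activates fatty acids, had 114 ± 8.60 TPM, Dgat2 59.4 ± 24.3 TPM and Agpat2 44.7 ± 6.62 TPM (SD, n = 3). The other diacylglycerol acyltransferase gene, Dgat1, had 33.1, 16.4 and 18.0 TPM, a mean of 22.5 ± 9.17 TPM, and was highest in replicate 1, where Dgat2 was lowest. Higher in the authors' deposited table were 7 of 21 genes, and 4 were lower, with 2.27 for Lpin3, 2.17 for Agpat2, -0.97 for Acsl4 and -0.75 for Acsl3. Of 16 lipid droplet and lipolysis genes, 11 were detected. The droplet coat genes Plin3 and Plin2 had 131 ± 8.51 and 45.1 ± 4.61 TPM, and Bscl2, which encodes seipin, had 33.0 ± 3.96 TPM (SD, n = 3), while Plin1 and Plin4, coat genes of adipocytes, were at 0.0328 and 0.0619 TPM. Higher in the authors' deposited table were 8 of 15 genes, and 2 were lower, with 3.22 for the lipase inhibitor gene G0s2, 3.05 for Plin3, -2.90 for Cideb and -1.70 for Abhd5.

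Of 18 regulator genes, 17 were detected, and Pparg was the exception. Rxra was highest, followed by the sterol regulator gene Srebf2 with 105 ± 22.6 TPM and the liver X receptor gene Nr1h2 with 73.9 ± 10.3 TPM (SD, n = 3). A total of 10 of 18 were higher in the authors' deposited table, among them Cebpb with 5.24 and Pparg with 3.12, and 2 were lower, the coactivator gene Ppargc1a with -3.02 and Insig1 with -0.64. All 18 cholesterol synthesis genes in the table were detected. Hmgcs1 had 85.4 ± 23.4 TPM, Ebp 52.2 ± 6.00 TPM and Pmvk 49.8 ± 3.38 TPM (SD, n = 3). A total of 5 of 18 were higher in the authors' deposited table, among them Ebp with 3.74 and Pmvk with 1.77, 0 were lower and 13 did not pass the limit.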

How the data were processed

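Polyadenylated RNA of 3 libraries of 1 group was measured. The authors deposited whole-number counts per gene, TPM, a log2 fold change, its adjusted p-value, a value headed H3K27me3 and a score, per the file headers. The submitters' processing notes name TopHat2, SAMtools, FastQC, DESeq, DESeq2, mm10 and GRCm38 with no role, and the counting tool, strand setting and treatment of reads with several alignments were not given in the sources used here. TPM recomputed from the deposited counts and lengths differed by at most 4.72e-06. Another 6 columns of per-sample values matched no sample and were not used.

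Of 44625 entries, 44548 genes were kept (the highest mean TPM per symbol), with 27 date-like symbols and 3 older list symbols resolved by identifier. Gene models came from GENCODE M21 (GRCm38). Levels were compared as log2(TPM + 1), which understates changes of low genes. No test between samples was run. TMM factors came from edgeR 4.0.16 on the deposited counts. The deviation rule was checked on simulated data. Poisson and Wilson intervals are at 95%, and the limit of a count of 0 is 3 counts in the library where that gives the highest TPM.

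The 9 genes and all lists were chosen with earlier results of these data known. From each pathway list the text names the 3 highest genes by mean TPM, the 2 largest and 2 smallest deposited log2 fold changes with an adjusted p-value under 0.05, and up to 3 genes at 0 counts, and from each marker list the 3 highest and those at 0. It also names genes next to Apoe in rank, neighbours on the chromosome, and for Apoe and the widest-ranging gene the 3 nearest profiles by Euclidean distance of centred log2(TPM + 1). Other genes named beside the 9 (Lmf1, Ppard, Ppara, Dgat1, Scd3, Scd4, Plin1, Plin4, Adipoq, Awat1, Awat2, Dgat2l6 and Fa2h) were chosen after their values were seen. One listed cholesterol synthesis gene was not analysed here, and a few genes that the rule would name are not reported here. Alternatives were another scaling, TPM without mitochondrial and short genes (under 200 bases), another pseudocount, CPM, other limits, another gene length and leaving out each replicate.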

Additional observations from a re-analysis of the deposited data

How the results depend on the processing

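Of 111 alternative values for 20 results (the levels of the 9 genes, 5 differences between them, the deviation count, the counts in the authors' comparison, the pathway gene count and median, and the rank of Apoe), 98 moved by less than the spread between replicates or, for counts, by at most 1.5 times. These include all 48 that left out 1 replicate. For levels, differences and the median that outcome was fixed in advance, because leaving out 1 of 3 values moves a mean by less than their SD. These values therefore say nothing about robustness. Among the levels Pparg moved most, from 0.679 TPM to 0.375 without replicate 1 and 0.854 without replicate 3. Without mitochondrial and short genes the means of Apoc1 and Scd2 moved to 511 and 24.2 TPM. With the principal transcript length, chosen after seeing the data, those of Fabp5, Lpl and Scd2 moved to 54.9, 1.15 and 15.6 TPM, and the difference of Fabp5 and Lpl to 4.69 (log2). In CPM, which ignores length, the differences moved to 6.26 for Apoe and Apoc1 and 3.08 for Fabp5 and Lpl, and that of Fasn and Dgat2 turned from -0.57 to 1.23. A pseudocount of 0.1 moved the differences of Fabp5 and Lpl to 4.88 and of Dgat2 and Pparg to 6.38. The deviation count went from 0 to 3 with the 1.5-fold limit, and the rank of Apoe from 7 to 3 among nuclear protein-coding genes. With an adjusted p-value under 0.01, 4 of the 9 genes were higher in the authors' deposited table. With a limit of 5 TPM in place of 1, the detected count of 6 single lists moved by over 1.5 times, all downward (lipase partners, desaturases and the sebaceous, macrophage, adipocyte and Schwann cell markers). No paired analysis was possible because the samples form 1 group. The low counts of Pparg and Lpl limit the precision of their levels.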

Other observations

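Several genes around Apoe and Apoc1 on chromosome 7 were also higher in the authors' comparison. The basal cell adhesion gene Bcam had 999, 1557 and 1535 TPM in replicates 1, 2 and 3, a mean of 1363 ± 316 TPM (SD, n = 3), with a log2 fold change of 2.41 in the authors' deposited table (adjusted p-value 3.21e-14). Tomm40, between Apoe and Bcam, had 23.1 ± 2.17 TPM and a log2 fold change of 2.66 in the authors' deposited table (adjusted p-value 5.75e-17). The nectin gene Pvrl2 had 22.3 ± 2.11 TPM and Clptm1, beyond Apoc2, 63.3 ± 9.17 TPM (SD, n = 3). For these the authors' deposited table gives 1.61 and 0.88 on the log2 scale. Around Scd1 and Scd2 on chromosome 19, Bloc1s2 (2.80), Ndufb8 (1.93) and Hif1an (0.72) were also higher in the authors' deposited table. Wnt8b (-2.77), Scd3 (-1.64) and Sec31b (-0.73) were negative there without passing the limit. Beside these, 23.6% of all genes with a p-value were higher in the authors' deposited table.

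Across the 3 libraries, the genes at 100 TPM or more on average whose log2(TPM + 1) profile lay nearest to that of Apoe were Aes, Sepw1 and Ptrf, at distances of 0.0089, 0.010 and 0.017. Those nearest to Dgat2 were Them5, Psapl1 and Ly6g6c, at 0.085, 0.11 and 0.16. Them5 had 71.1, 90.4 and 155 TPM and Psapl1 90.5, 112 and 176 TPM in replicates 1, 2 and 3. With 3 libraries and 1218 or 1219 candidate genes such likeness is a description only.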
